A study of Mus musculus with 4 samples.

Results

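The 3 MEF2 transcription factor genes Mef2a, Mef2c and Mef2d and the 4 class IIa histone deacetylase genes Hdac4, Hdac5, Hdac7 and Hdac9 were described by the accessible chromatin regions around them in mouse macrophages. A region is the merged span of ATAC-seq peaks from 4 libraries that overlap by at least 1 bp. It was given to a member when that gene was the nearest protein-coding gene and lay at most 50 kb away. This gave 128 regions, of 80467 given to any protein-coding gene in the same way and 91858 in all. All 7 members had at least 1 region. ATAC-seq uses a transposase that cuts open DNA, and a peak is a stretch where a peak caller found more cuts than in its local background.

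The cells were bone marrow-derived macrophages, which are marrow cells grown for 7 to 10 days in medium from L929 cells, a source of macrophage growth factor. Knockout (KO) cells were Ezh2fl/fl;LysM-Cre+/-, in which Cre is driven from a locus active in myeloid cells, while the wild type (WT) was represented by littermates, whose alleles the labels do not give. All 4 libraries, 2 per genotype, came from cells that had received medium of Hepa1-6, a mouse liver cancer line, for 24 hours, so no untreated state enters any comparison here. Ezh2 is the catalytic subunit of Polycomb repressive complex 2, which methylates lysine 27 of histone H3. The labels do not say that replicates are separate mice or cultures, so the spread between them may be technical. The comparison asks where chromatin around the 7 genes differs between genotypes under tumour cell medium.

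MEF2 proteins bind an A/T-rich element and switch genes on or off depending on their partner. Class IIa deacetylases bind MEF2 in the nucleus and recruit corepressors. Calcium-dependent and other kinases phosphorylate them, after which 14-3-3 proteins hold them in the cytoplasm and MEF2 is released. Both families are best known from muscle, neurons and the immune system, and Mef2c and Mef2d are also used by myeloid cells. Hdac9 is a known MEF2 target and thus part of a feedback loop.

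The peak lists held 67055 to 72887 peaks and covered 26.7 to 29.9 Mb. They carry no read counts, so depth is unknown, and a missing peak may mean signal just under the caller's threshold. Start windows of all 7 macrophage markers with an entry in the promoter table (Cd68, Cebpa, Cebpb, Fcgr1, Itgam, Lyz2 and Mertk) overlapped regions called in all 4 libraries. Of 53 markers of 9 other cell types, 6 did (Cd5, Kdr, Syp, Tubb3, Camp and Flt3) and 45 were called in none. Muscle markers were at 0 of 8, B cell markers at 0 of 4, and hepatocyte markers at 0 of 6. Peaks do not measure Ezh2 RNA or protein. The region at the Ezh2 start was called in all 4 libraries, and a region inside the gene (chr6:47532495-47532897) covered 403 and 372 bp in WT against 106 and 182 bp in KO. Fold enrichment over local background at the inner region was 5.66 and 7.10 in WT against 3.61 and 3.42 in KO. At the start region it was 5.52 and 5.15 against 6.24 and 5.62.

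The members differed in whether their annotated starts were called. RefSeq's promoter table for GRCm38.p6, the assembly behind mm10, lists 13 starts for the 7 members, numbered here from the most upstream. Each window holds 250 bases before a start and 50 bases from the start on. A start counted as called by a library when a region with a peak of that library overlapped its window. The following windows are shown because they pair starts without a call with called starts of the same gene, or carry the largest number of CG pairs among the 13. CG pairs are in capitals.
Mef2c, start 1, chr13:83503784-83504083, plus strand, called in no library: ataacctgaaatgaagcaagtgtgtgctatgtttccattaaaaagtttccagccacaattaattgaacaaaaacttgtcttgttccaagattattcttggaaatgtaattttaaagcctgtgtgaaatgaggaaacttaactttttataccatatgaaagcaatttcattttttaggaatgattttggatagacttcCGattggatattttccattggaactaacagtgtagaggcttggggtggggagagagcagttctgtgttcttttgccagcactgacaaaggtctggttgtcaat
Mef2c, start 2, chr13:83523406-83523705, plus strand, called in all 4: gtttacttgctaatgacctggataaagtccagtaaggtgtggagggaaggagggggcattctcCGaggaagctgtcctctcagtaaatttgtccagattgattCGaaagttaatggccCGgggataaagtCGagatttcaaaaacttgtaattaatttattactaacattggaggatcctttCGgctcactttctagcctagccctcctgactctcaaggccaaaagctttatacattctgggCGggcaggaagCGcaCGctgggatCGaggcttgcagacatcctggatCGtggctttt
Hdac9, start 1, chr12:34917046-34917345, minus strand, called in no library: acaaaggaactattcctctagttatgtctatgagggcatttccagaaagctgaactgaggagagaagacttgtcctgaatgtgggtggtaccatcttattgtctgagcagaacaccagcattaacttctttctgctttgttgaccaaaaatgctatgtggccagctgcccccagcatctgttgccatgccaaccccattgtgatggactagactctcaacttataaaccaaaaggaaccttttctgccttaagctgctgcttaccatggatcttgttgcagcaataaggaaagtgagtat
Hdac9, start 2, chr12:34528840-34529139, minus strand, called in 3: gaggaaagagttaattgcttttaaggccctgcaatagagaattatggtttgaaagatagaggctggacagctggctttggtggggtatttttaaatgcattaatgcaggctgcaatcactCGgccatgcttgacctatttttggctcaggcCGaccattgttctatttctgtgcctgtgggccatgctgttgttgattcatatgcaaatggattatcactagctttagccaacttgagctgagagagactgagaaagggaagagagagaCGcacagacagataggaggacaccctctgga
Hdac7, start 2, chr15:97831718-97832017, minus strand, called in all 4: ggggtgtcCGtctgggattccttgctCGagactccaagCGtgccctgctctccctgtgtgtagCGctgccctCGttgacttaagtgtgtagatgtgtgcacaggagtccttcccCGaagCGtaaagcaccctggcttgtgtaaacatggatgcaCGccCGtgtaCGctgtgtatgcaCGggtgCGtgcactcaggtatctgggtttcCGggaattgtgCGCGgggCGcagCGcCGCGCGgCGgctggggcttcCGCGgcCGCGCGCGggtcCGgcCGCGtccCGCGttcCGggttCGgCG
The uncalled Mef2c window held 1 CG pair and the called one 10. The Hdac9 windows held 0 and 3, and the Hdac7 window 35.

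Of the 13 member starts, 7 were called in all 4 libraries, as were 50.6% of 21263 annotated starts of protein-coding genes. Every member but Hdac9 had such a start. These 7 were the ones whose windows held 10 or more CG pairs, and the 6 others held 0 to 6. Mef2a had 27 CG pairs, Mef2d 24, Hdac4 32, Hdac5 18, and Hdac7 start 3 had 31. Over all starts the same gradient was present: 8.70% of windows with 0 to 4 CG pairs, 27.5% with 5 to 9, 67.6% with 10 to 19 and 83.3% with 20 or more were called in all 4. The member windows followed the gradient of the whole table.

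A search of both strands for the MEF2 consensus element found it in 2 of the 13 windows, those of Mef2a and Hdac5, and in 0.489% of all promoter windows (104 windows). Both windows are shown because they carry a match to the element that MEF2 proteins bind, here in capitals. Both starts were called in all 4 libraries.
Mef2a, chr7:67372809-67373108, minus strand: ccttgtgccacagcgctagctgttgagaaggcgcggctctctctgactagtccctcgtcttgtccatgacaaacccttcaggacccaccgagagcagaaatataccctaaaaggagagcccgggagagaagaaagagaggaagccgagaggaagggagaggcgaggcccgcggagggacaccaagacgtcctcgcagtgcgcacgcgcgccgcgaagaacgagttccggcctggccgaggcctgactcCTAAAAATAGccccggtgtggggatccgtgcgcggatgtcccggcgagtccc
Hdac5, chr11:102230123-102230422, minus strand: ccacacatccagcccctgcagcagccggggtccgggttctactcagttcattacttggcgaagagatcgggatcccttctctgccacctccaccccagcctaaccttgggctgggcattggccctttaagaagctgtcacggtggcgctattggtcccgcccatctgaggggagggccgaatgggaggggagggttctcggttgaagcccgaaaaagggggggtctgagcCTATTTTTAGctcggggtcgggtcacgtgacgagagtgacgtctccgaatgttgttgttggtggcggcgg
The Mef2a match runs from 2 bases before the start to 7 bases after it, and the Hdac5 match from 20 to 11 bases before the start. Of the other motifs searched, GAGGAAGT, a PU.1-like element, was in none of the 13 windows and in 3.13% of all windows. TGANTCA, the AP-1 element, was in 3 (Mef2c start 3, Hdac7 start 4, Hdac9 start 2) and in 6.99% of all. TTGCNNAA, a C/EBP-like element, was in none and in 10.2% of all, and TGACGTCA, the cyclic AMP response element, in none and in 2.23% of all. GGGCGG, the GC box, was in 5 windows (Mef2c start 2, Mef2d, Hdac4, Hdac5 and Hdac7 start 3) and in 46.2% of all. Matches of different motifs did not overlap in the member windows. A match describes letters only and says nothing of binding.

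All 4 libraries called 70 of the 128 member regions (54.7%), and the same held for 59.5% of regions assigned to any gene. The WT libraries called 88 and 104, and the KO libraries 93 and 93, so the replicates of WT differed more than the genotypes did. Regions called in a single library numbered 30 (23.4%), against 21.7% of all, and WT replicate 2 gave 15 of them. Only 1 region was called by both KO libraries and neither WT library, against 1.44% of all regions, and 3 by both WT and neither KO library, against 1.94%. All 4 of these genotype-only regions belong to Hdac9. Regions called in all 4 had a median width of 448.5 bp, and those called once 152 bp. Inside the annotated gene lay 111 of the 128. The table used holds no exons, so exonic and intronic positions are not given.

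**Figure D1:**
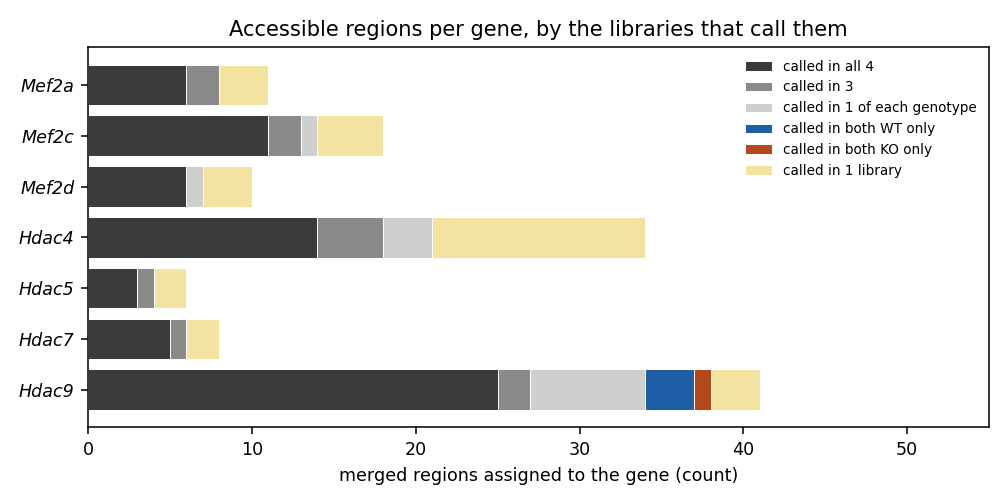
Number of merged regions given to each gene (horizontal axis, count), stacked by which libraries called them. Hdac9 has the longest bar with 41 regions and is the only member with segments called in 1 genotype only, and Hdac4 has the largest segment called in a single library with 13.

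Strength was read as the percentile of a peak's fold enrichment within its own list, the authors' value averaged over the peak, where 100 is the strongest peak. Of the 70 regions called in all 4, both KO percentiles lay above both WT ones in 13 (18.6%), against 17.0% of all such regions. Both WT percentiles lay above both KO ones in 12 (17.1%), against 17.9%. Covered width, the bases of a region under a library's peaks, was larger in both KO libraries in 7 (against 16.5%) and larger in both WT libraries in 9 (against 16.8%). The rank shares lay near the background in both directions, and the width shares lay below it. The median absolute gap between genotype means was 7.06 percentile points, against median replicate gaps of 10.3 in WT and 7.32 in KO. With 2 libraries against 2, an exact two-sided permutation test cannot give a p below 0.333, so no region was tested. Open chromatin in a larger share of the cells and more open chromatin per cell cannot be told apart.

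**Figure D2:**
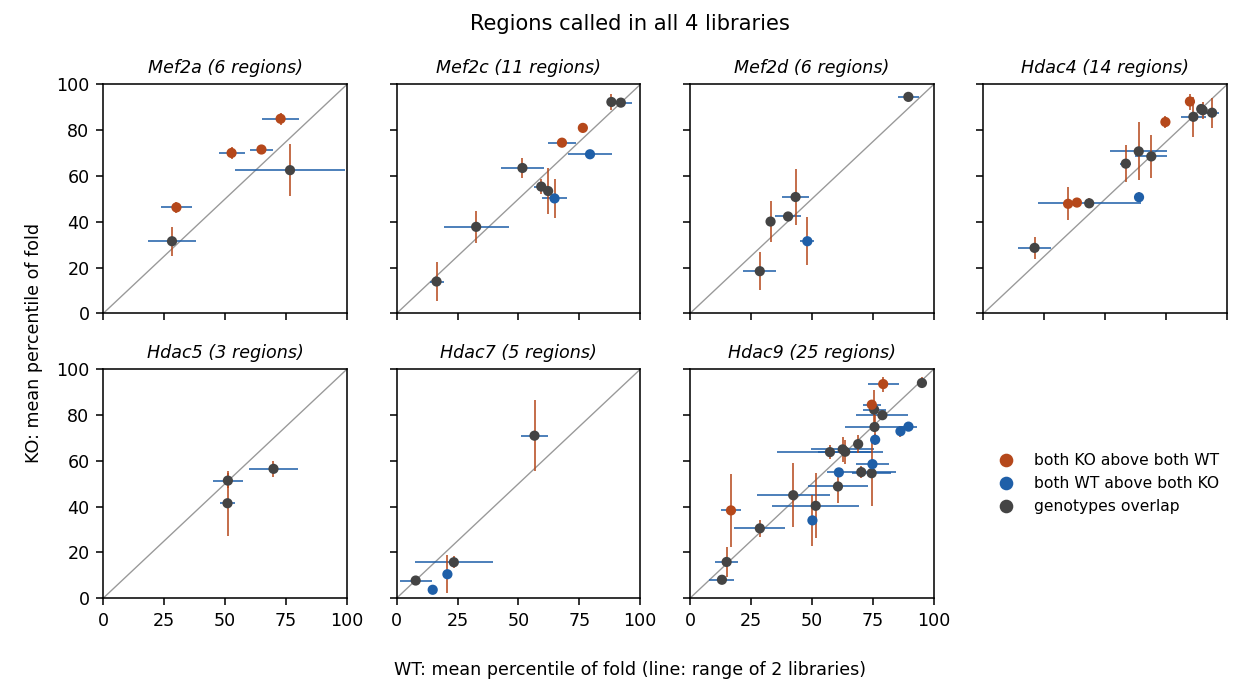
Mean percentile of fold in KO (vertical axis) against WT (horizontal axis) for the 70 regions called in all 4 libraries, 1 panel per gene, with lines for the range of the 2 libraries of each genotype and a diagonal of equal values. Mef2a has 4 of 6 points with both KO values above both WT values, and Hdac9 has 6 blue and 3 red points of 25.

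Percentile and width moved against each other. Within a region, the percentile of a library and the log2 of its covered width had a correlation of -0.243 over 280 values from the 70 regions, and of -0.205 over the 47917 regions called in all 4 anywhere. The values of a region share their 4 libraries, and no p is given. Of the 13 regions with higher KO rank, 11 were narrower in KO by the means, and of the 12 with higher WT rank, 9 were wider in KO. The part of peak width in the rank differences was not tested.

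Mef2a, a broadly expressed member of the family, had 11 regions, 6 of them called in all 4. Its start lay in its widest and strongest region (chr7:67372704-67374362, 1659 bp). There the fold was 5.19 and 5.91 in WT against 6.97 and 6.24 in KO, which are percentiles of 65.2 and 80.4 against 87.7 and 82.4. Both KO values were above both WT values, with KO replicate 2 only slightly above WT replicate 2. The covered width was 1615 bp in WT replicate 1 and 971 to 1130 bp in the other libraries, so the lowest rank went with the widest peak.

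A further 3 of its 6 regions had the same order, which made 4 of 6 (66.7%), beside 17.0% of all regions called in all 4. Percentiles at chr7:67305009-67305212, inside the gene, were 36.3 and 23.8 in WT against 48.6 and 44.0 in KO. Percentiles at chr7:67380227-67381246, which is 7369 bp upstream of the start, were 47.3 and 58.0 against 72.9 and 67.3. Percentiles at chr7:67425269-67426411, 52411 bp upstream of the start, were 60.2 and 69.7 against 73.4 and 69.7, where WT replicate 2 and KO replicate 2 were nearly equal. No Mef2a region was higher in both WT libraries, an order found in 17.9% of all regions called in all 4. The region at chr7:67242038-67242828, inside the gene near its far end, was the most variable, with 99.1 in WT replicate 1, where its peaks covered 239 bp, and 54.2, 51.1 and 74.0 in the others, where they covered 724 to 740 bp.

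The median percentile of the 6 Mef2a regions was 53.8 and 56.1 in WT against 62.0 and 68.5 in KO, a difference of 10.3 points with no overlap (two-sided exact permutation p = 0.333, the smallest possible). Of 6614 genes with at least 3 regions called in all 4, 15.6% had both KO medians above both WT medians, and 6.43% had a larger difference than Mef2a. The groups overlapped when only the 4 regions inside the gene were used (5.99 points) and when peaks were ranked by the deposited −log10 p (2.67 points). On the same 6 regions, leaving out 1 library at a time gave differences of 7.06 to 13.6 points. Overlap could not arise there, because each library keeps its median. When the regions were instead those called in every library left in, 7 regions entered without WT replicate 1 (1.20 points) and 7 without KO replicate 2 (0.374 points), and the groups overlapped in both. Covered bases over all 11 regions went the other way, 4634 and 4487 in WT against 4430 and 4247 in KO, and 17.1% of genes had both WT values higher.

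Mef2c, known from heart, brain and blood cell development, had 18 regions, 11 of them called in all 4. The most upstream of its 3 starts was called in no library, and the nearest region was 14101 bp away. Start 2 lay in the widest region of the gene (chr13:83523642-83524885, 1244 bp). The fold there was 4.79 and 4.87 in WT against 4.92 and 4.51 in KO, with percentiles of 56.5 and 62.2 against 58.6 and 52.2 and widths of 1085 to 1234 bp. The genotypes overlapped in both measures. Start 3 was uncalled, but 937 bp upstream of it lay a region called in all 4.

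That region (chr13:83571850-83572670, 821 bp) was the 1 Mef2c region in which rank and width separated the genotypes in the same direction. The percentiles were 62.3 and 73.4 in WT against 75.7 and 73.5 in KO. Its peaks covered 686 and 682 bp in WT against 731 and 746 bp in KO. KO replicate 2 exceeded WT replicate 2 by a narrow margin in rank. The strongest Mef2c region (chr13:83608999-83609806, 808 bp), inside the gene and 35392 bp downstream of start 3, had a fold of 6.69 and 7.77 in WT against 7.54 and 7.30 in KO, with percentiles of 87.6 and 96.4 against 92.0 and 92.1. KO lay between the WT libraries there.

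Over the 11 regions, 2 (18.2%) ranked higher in both KO libraries and 2 (18.2%) in both WT libraries. The shares over all regions called in all 4 were 17.0% and 17.9%. The medians were 60.5 and 69.8 in WT against 59.3 and 67.8 in KO, so the replicates differed by more than the genotypes. Covered bases were 5219 and 7153 against 5588 and 6948, with the same overlap. A region 48000 bp beyond the gene, close to the 50 kb limit, had percentiles of 60.5, 63.8, 43.4 and 63.5 in WT replicates 1 and 2 and KO replicates 1 and 2.

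Mef2d, another broadly expressed member, had 10 regions, 6 of them called in all 4, and the lowest median among the MEF2 genes, 41.5 and 42.1 in WT against 40.7 and 42.0 in KO. Its start region (chr3:88141926-88142814, 889 bp) had a fold of 4.35 and 3.79 in WT against 4.25 and 4.08 in KO. The percentiles were 45.4 and 35.1 against 42.7 and 41.9, so KO fell between the WT replicates. Its strongest and widest region was not at the start but 34850 bp downstream of it, 5131 bp beyond the gene (chr3:88177222-88178472, 1251 bp), with a fold of 7.50, 6.28, 8.20 and 7.55 in the order WT replicates 1 and 2, KO replicates 1 and 2. These are percentiles of 94.0, 85.1, 95.5 and 93.7.

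A Mef2d region of 218 bp, chr3:88192347-88192564, was ranked higher in WT, with percentiles of 45.3 and 51.0 against 21.0 and 42.0. Its peaks were narrower in WT, at 124 and 122 bp against 138 and 203 bp. Rank and width pointed to opposite genotypes. The other 5 Mef2d regions overlapped between genotypes in rank.

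The class IIa deacetylases had 89 regions, 47 of them called in all 4, against 39 and 23 for the MEF2 genes. Of the 47, 7 (14.9%) ranked higher in both KO and 9 (19.1%) in both WT libraries, and of the 23, 6 (26.1%) and 3 (13.0%), beside 17.0% and 17.9% of all regions called in all 4. The difference between the families was not tested.

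Hdac4, known for restraining growth and differentiation of muscle and cartilage, had 34 regions over a gene of 266924 bp, which placed it at rank 44 of 17559 genes by number of regions. It had the largest share of regions called once, 13 of 34 (38.2%), and 14 (41.2%) called in all 4. Its start lay in a region (chr1:92180164-92181035, 872 bp) with a fold of 6.74 and 6.83 in WT against 7.42 and 6.71 in KO. The percentiles were 88.1 and 90.7 against 91.2 and 87.4, and the covered widths 838 to 866 bp. This was the strongest start region of any member, and the one in which the 4 libraries lay closest together.

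The strongest Hdac4 region (chr1:91954811-91955431, 621 bp) lay inside the gene, 224910 bp downstream of the start. Its fold was 7.07 and 7.80 in WT against 7.93 and 6.14 in KO, with percentiles of 91.1 and 96.5 against 94.2 and 81.1. KO replicate 2 was the low library. The widest region (chr1:92216227-92217441, 1215 bp) lay 35886 bp upstream of the start, with percentiles of 73.8 and 75.6 in WT against 80.8 and 86.4 in KO. It covered 1215 and 1166 bp in WT against 968 and 925 bp in KO, so both measures separated the genotypes but in opposite directions.

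The same opposition was seen at chr1:92080118-92080544, with 37.4 and 39.4 in WT against 49.3 and 47.6 in KO, and 377 and 399 bp against 293 and 208 bp. Of the 14 Hdac4 regions called in all 4, 4 (28.6%) ranked higher in KO and 1 (7.14%) in WT. Over all regions called in all 4 the shares were 17.0% and 17.9%. None of the 14 was wider in KO and 3 (21.4%) were wider in WT, beside 16.5% and 16.8% of all. The gene's medians were 69.2 and 70.1 in WT against 75.3 and 68.0 in KO, and overlapped. Some other settings with all 4 libraries gave KO higher without overlap. The difference there ran from 3.22 (mean over regions) to 6.25 points (peaks over at least 50% of a region). The groups overlapped inside the gene (0.0562 points) and with ranks by the deposited −log10 p (3.42 points). Without KO replicate 1, WT was higher (-1.60 points). Without KO replicate 2, KO was higher (5.69 points on the same 14 regions, 8.81 points on the 15 called in every library left). The direction thus depended on which KO library was kept.

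Hdac5, whose export from the nucleus is a classical kinase response in heart muscle, had 6 regions, 3 of them called in all 4. Its start region (chr11:102229916-102230693, 778 bp) was also its strongest, with a fold of 6.06 and 4.75 in WT against 4.67 and 4.86 in KO. The percentiles were 80.1 and 59.6 against 53.0 and 60.0. WT replicate 1 stood above the 3 other libraries, and its peaks there were the narrowest, at 406 bp against 542 to 763 bp. The widest region (chr11:102218606-102219414, 809 bp) had percentiles of 45.1 and 57.2 in WT against 54.7 and 48.0 in KO. The medians of the 3 regions were 54.0 and 57.2 in WT against 53.0 and 55.7 in KO, and overlapped (-1.30 points). The mean over regions gave -7.58 points without overlap, and 7.50% of 6614 genes had a lower value. Peaks over at least 50% of a region also gave no overlap (-6.60 points, 2 regions). In the other settings with all 4 libraries the groups overlapped. Covered bases over the 6 regions were 1878 and 2608 in WT against 1684 and 1827 in KO. Both WT values were higher, as in 17.1% of genes (exact permutation p = 0.333).

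Hdac7, known from endothelium and developing lymphocytes, had 8 regions, 5 of them called in all 4, and the weakest start among those called in all 4 libraries. The region that holds 2 of its starts (chr15:97830827-97831968, 1142 bp) had a fold of 3.22 and 3.14 in WT against 2.82 and 2.83 in KO. Those are percentiles of 13.4 and 16.3 in WT against 2.90 and 4.45 in KO, and both WT libraries were higher. Of 10751 starts in regions called in all 4, 1.07% had a lower mean percentile than the 9.24 of Hdac7, although its windows hold 35 and 31 CG pairs. The peaks there were broad, covering 1025 and 459 bp in WT against 1028 and 1074 bp in KO.

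A second Hdac7 region, chr15:97821000-97821797, also ranked higher in WT and was wider in KO. The percentiles were 18.9 and 22.8 against 18.8 and 2.11, so WT replicate 1 and KO replicate 1 were nearly equal, and the covered widths were 355 and 423 bp against 769 and 756 bp. The strongest Hdac7 region (chr15:97824930-97825431, 502 bp) had 51.0 and 62.2 in WT against 86.5 and 55.4 in KO, where KO replicate 1 stood apart with the narrowest peak, 204 bp against 384 to 439 bp.

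The medians of the 5 Hdac7 regions were 13.4 and 22.8 in WT against 13.0 and 8.26 in KO, a difference of -7.46 points without overlap (exact permutation p = 0.333), and 18.5% of genes had both WT medians higher. Covered bases were 2225 and 1671 in WT against 2675 and 2720 in KO, and 14.0% of genes had both KO values higher. With the weakest 25% of each list removed, 1 Hdac7 region was left in all 4 libraries, with a KO minus WT difference of 19.2 points and overlapping groups. On the same 5 regions the difference was -2.73 points without WT replicate 2, and the groups overlapped when peaks were ranked by the deposited −log10 p (-1.67 points). They also overlapped when peaks had to cover at least 50% of a region (-3.95 points, 2 regions) and for the mean over regions (-3.01 points).

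**Figure D3:**
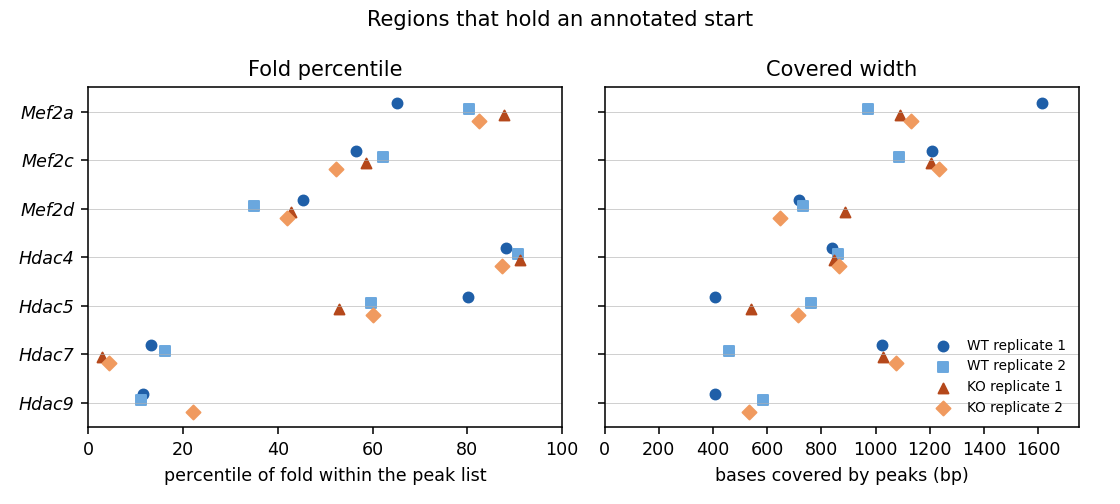
Percentile of fold within the peak list (left) and bases covered by peaks (right) for the region at a called start of each gene, 1 symbol per library. Hdac4 is highest and tight between 87.4 and 91.2, Hdac7 and Hdac9 are lowest, and in the left panel Mef2a is the gene where both KO symbols lie right of both WT symbols. In the right panel that holds for Hdac7.

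Order of the start regions by mean percentile over the 4 libraries was Hdac4 at 89.3, Mef2a at 78.9, Hdac5 at 63.2, Mef2c at 57.4, Mef2d at 41.3 and Hdac7 at 9.24, beside a median of 77.1 over 10751 starts. Hdac4 and Mef2a overlap by a narrow margin, since the highest Mef2a value was 87.7 and the lowest Hdac4 value 87.4. Mef2a overlaps Hdac5 in its spread and Hdac5 overlaps Mef2c, whereas Mef2c and Mef2d do not overlap and Hdac7 lay apart from Mef2d.

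Hdac9, which is a MEF2 target and binds MEF2 in turn, had 41 regions over a gene of 869516 bp, and ranked 21 among 17559 genes with a region. Per 100 kb it had 4.60 regions inside the gene, against a median of 8.57 over genes with a region. Those genes had a median length of 21887 bp, and genes of like length were not compared. Mef2a was also below that median, at 5.51. It had 25 regions called in all 4 and only 3 called once. The most upstream start was uncalled, with the nearest region 6942 bp away. Start 2 lay in a region (chr12:34528840-34529481, 642 bp) called in both WT libraries and KO replicate 2, with a fold of 3.16, 2.98 and 3.38 and percentiles of 11.5, 11.2 and 22.1. Neither start had a strong peak.

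The strongest Hdac9 region lay inside the gene, 193486 bp downstream of the most upstream start (chr12:34722835-34723609, 775 bp). Its fold was 7.42 and 7.88 in WT against 8.43 and 7.22 in KO, with percentiles of 93.5 and 96.8 against 96.4 and 91.6. KO and WT overlapped. The widest region (chr12:34432606-34433648, 1043 bp) had percentiles of 61.1 and 61.1 in WT against 53.8 and 56.1 in KO. Both WT libraries were higher, with a KO minus WT difference of means of -6.15 points, and KO replicate 1 covered 595 bp against 1037 to 1041 bp in the others.

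The 3 WT-only regions were weak to middling and small. One of 119 bp (chr12:34586508-34586626) had a fold of 3.91 and 4.10 in the WT libraries, at percentiles of 33.5 and 43.6. Another of 285 bp (chr12:34672800-34673084) had 3.41 and 4.60, at 19.2 and 56.0. The last, of 179 bp (chr12:34839214-34839392), had 4.17 and 3.42, at 40.8 and 24.8. The KO-only region of 353 bp (chr12:34594965-34595317) had a fold of 3.55 and 3.88, at 23.1 and 36.4, and its peaks covered 131 and 353 bp. None of the 4 remained genotype-only when peaks under 150 bp were removed.

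Genotype-only regions were present at 2365 of 17559 genes, and 12 genes had at least 3 that were WT-only, Hdac9 among them. Among genes rich in regions, 3 of 107 genes with at least 30 regions had at least 3 WT-only regions, and 28 of the 107 had no genotype-only region. Without Hdac9, the members had 87 regions, 45 called in all 4 and no genotype-only region.

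Among its 25 regions called in all 4, 6 (24%) ranked higher in both WT and 3 (12%) in both KO libraries. Over all regions called in all 4 the shares were 17.9% and 17.0%. Of the 6, chr12:34195312-34195770 had 86.1 and 93.2 in WT against 76.7 and 73.2 in KO, and chr12:34783676-34784027 had 81.6 and 68.2 against 57.9 and 59.2. On the KO side, chr12:34486047-34486425 had 85.6 and 72.9 in WT against 90.3 and 96.8 in KO, and chr12:34504315-34504702 had 70.8 and 78.4 against 83.0 and 86.0. Both of these KO-side regions were narrower in KO, at 188 and 227 bp against 342 and 379 bp, and at 189 and 211 bp against 357 and 353 bp. A single Hdac9 region was higher in KO in both measures, the 201 bp region chr12:34041056-34041256 beyond the far end of the gene, with percentiles of 21.1 and 12.6 against 54.2 and 22.5 and widths of 156 and 153 bp against 164 and 188 bp.

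The median percentile of the 25 regions was 69.5 and 68.2 in WT against 58.7 and 60.9 in KO, a difference of -9.03 points without overlap (exact permutation p = 0.333). Both WT medians were higher in 18.5% of genes, and 12.6% of 6614 genes had a lower difference. The median over regions of the single differences was smaller, -1.18, and their mean -2.93. The typical region thus differed by less than the medians did. Covered bases were 10339 and 11492 in WT against 7750 and 11854 in KO, and overlapped because KO replicate 1 was low and KO replicate 2 high.

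**Figure D4:**
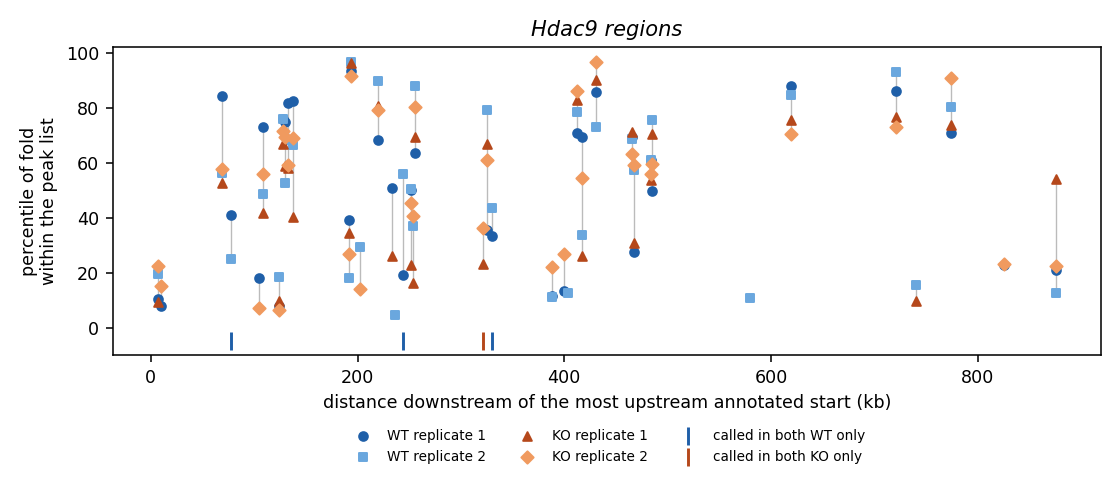
Percentile of fold within the peak list (vertical axis) for each Hdac9 region and library, against distance downstream of the most upstream start in kb (horizontal axis), with grey lines joining libraries of a region and ticks for the 4 genotype-only regions. WT and KO symbols intermix along the gene, and the 3 WT-only ticks and the KO-only tick all lie in the upstream part of the gene.

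The 50 kb limit decides membership at the edge. Just inside it, the Mef2a region at 48813 bp beyond the gene had percentiles of 60.2, 69.7, 73.4 and 69.7 in WT replicates 1 and 2 and KO replicates 1 and 2. Just outside it, a Mef2a region at 54505 bp had 55.5, 58.4, 60.0 and 32.1, and an Hdac4 region at 54963 bp had 90.7, 64.2, 59.1 and 72.3.

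The kinases and phosphatases that act on MEF2 and class IIa deacetylases, 20 genes, had 196 regions. All 4 libraries called 111 of them (56.6%), beside 59.5% of all assigned regions. Among the 196, 6 were KO-only and 5 WT-only, beside 1.44% and 1.94% of all assigned regions. A start in a region called in all 4 was found for 15 of the 20 genes. None was found for Ppp3ca, Camk2g, Camk4, Prkd1 and Sik1. That count does not separate an uncalled start from a gene without an entry in the promoter table. The promoter table has starts for 17492 of 21900 protein-coding genes, so these 5 cannot be called uncalled. Sik3, a salt-inducible kinase that phosphorylates class IIa deacetylases, had 2 KO-only and 2 WT-only regions. Camk2d, a calcium/calmodulin-dependent kinase, had 2 KO-only regions. Prkd3, a protein kinase D, had 1 of each. Ppp3ca, a catalytic calcineurin subunit, had 1 KO-only region, and Ppp3r1, the regulatory calcineurin subunit, and Sik2 had 1 WT-only region each. Of the 111, 16 (14.4%) ranked higher in both KO and 23 (20.7%) in both WT libraries, beside 17.0% and 17.9% of all regions called in all 4.

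Partners and coactivators, 13 genes with 95 regions, had 66 (69.5%) called in all 4, 2 KO-only and 1 WT-only. For this list and those below, the shares over all assigned regions were 59.5%, 1.44% and 1.94%. Bcl6, a repressor that binds class IIa deacetylases, and Ywhaz, a 14-3-3 protein, had a KO-only region each, and Ywhag, another 14-3-3 protein, a WT-only one. Known MEF2 targets, 14 genes including Hdac9 itself, had 108 regions, 71 (65.7%) called in all 4, 3 KO-only and 4 WT-only. Beside those of Hdac9, Nr4a3, an orphan nuclear receptor, and Hspb7, a muscle heat shock protein, had a KO-only region, and Jun, an AP-1 subunit, a WT-only one. The other zinc-dependent deacetylases and Mef2b, 8 genes with 16 regions, had 13 called in all 4 (81.2%) and 1 WT-only, at Hdac11. In ranks, the 66 partner regions split 13 (19.7%) to KO and 14 (21.2%) to WT, the 71 target regions 11 (15.5%) and 10 (14.1%), and the 13 other deacetylase and Mef2b regions 4 and 3, to be read against the same 17.0% and 17.9%. In covered width, the regulators had 17 regions (15.3%) wider in KO and 22 (19.8%) wider in WT, and the partners 14 (21.2%) and 11 (16.7%). The targets had 17 (23.9%) and 15 (21.1%), and the last list 1 (7.69%) and 3 (23.1%). The shares over all regions called in all 4 were 16.5% and 16.8%. No test was run on these lists.

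By log2 covered bases in the 4 libraries, the gene with the nearest profile to each member was Serpinb6a for Mef2a (distance 0.0480), Fhod3 for Mef2c (0.0892), Tiam2 for Mef2d (0.0901), Dock4 for Hdac4 (0.0934), Il1rl1 for Hdac5 (0.124), Fam110a for Hdac7 (0.169) and Slc24a3 for Hdac9 (0.181), among 15880 genes. The distance is Euclidean over the 4 libraries and says only that their totals are alike.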

How the data were processed

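ATAC-seq of 2 WT and 2 Ezh2 KO macrophage libraries, paired 150 bp reads, was grouped by sample titles. The submitters' processing notes name fastp, Bowtie2, MACS2 and mm10, with versions not given in the sources used here. Per library, the authors deposited 1 broad peak list, not pooled. By the layout of the deposited lists, each peak has a fold enrichment ratio over local background, averaged over the peak. It was taken as the authors computed it, and served to rank and describe peaks inside 1 list. The deposited lists also give a −log10 p, a −log10 q and a score, a whole number made from the −log10 q. For peak caller thresholds, read filters and read shifting, no source used here gives a setting. Depth is unknown.

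Peaks were merged at 1 bp overlap and given to the nearest protein-coding gene of the RefSeq GRCm38.p6 table within 50 kb, which matched all 7 members. Where a library had several peaks in a region, the highest fold was used. Analyses used Python 3.11.15, pandas 2.3.3, numpy 2.4.6 and scipy 1.17.1, and figures matplotlib 3.10.9. Counting code was tested on simulated data. Members and lists were chosen with earlier results of these data known. The regions named are those at starts, the strongest (by mean percentile) and widest of each gene, every genotype-only region, those separating the genotypes in rank and width in the same direction, and those nearest the 50 kb limit. Others named in the text were chosen after their values were seen. Replicate numbers come from the titles, and the main comparisons do not pair libraries by them.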

Additional observations from a re-analysis of the deposited data

How the results depend on the processing

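The values below set 70 regions called in all 4, 1 KO-only, 3 WT-only, 13 and 12 ranked higher in KO and WT, 7 and 9 wider in KO and WT, and 3 genes with non-overlapping median percentiles against each alternative, and those that stayed within 1.5 times are not printed. When a call needed peaks over at least 50% of a region, KO-only regions were 0 and regions wider in WT 4. With the weakest 25% of each list removed, WT-only regions were 1 and regions wider in KO 3. With the weakest 50% removed, the counts were 35 in all 4, 0 KO-only, 1 WT-only, 8 and 6 ranked higher in KO and WT, and 2 and 5 wider in KO and WT. Removing peaks under 150 bp left 0 KO-only and 0 WT-only regions and 5 separated genes, among them Mef2d (5.40 points) and Hdac4 (5.07 points). Which genes separated changed between settings, also where their number stayed close. Any region within 50 kb, whatever gene is nearest, gave 2 KO-only. Ranking by the deposited −log10 p left 1 separated gene, Hdac9. With the weakest 25% and 50% removed, 1 Hdac7 region was left, with KO minus WT differences of 19.2 and 28.8 points and overlapping groups.

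Leaving out 1 library at a time loosens every rule, since 3 libraries separate more easily. The counts then ran from 71 to 76 in all remaining libraries, 3 to 7 KO-only, 4 to 18 WT-only, 23 to 28 and 21 to 28 ranked higher in KO and WT, and 12 to 29 and 12 to 37 wider in KO and WT. The highest WT-only count was without WT replicate 1. Separated genes ran from 3 to 6, and from 3 to 7 on the same regions called in all 4. On the same regions, a gene separated with all 4 libraries must stay separated. The sign for Hdac9 was negative in every setting run, from -2.89 (ranks by −log10 p) to -12.97 (peaks under 150 bp removed). Its groups did not overlap in any of them, which on the same regions was fixed in advance. The mean over regions gave -2.93. The mean and the removal of libraries on the same regions were chosen after seeing the data.

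With a replicate block, counting regions with the same direction in both pairs of equal number, 20 and 13 ranked higher in KO and WT, and 13 and 15 were wider in KO and WT. The correlation of replicate differences between genotypes was 0.0103 over 47917 regions in rank and 0.0117 in width. Such a correlation cannot see a shift shared by a whole list. Equal-numbered lists were alike in highest fold, 45.4 in WT and 45.5 in KO for replicate 1, 25.5 and 25.2 for replicate 2. They were also alike in bases covered, 27.7 and 26.7 Mb against 29.8 and 29.9 Mb. A batch by replicate number was not tested. Depth is unknown, so a region missing from a list cannot be called closed, and 2 libraries per genotype allow no p below 0.333 in an exact permutation test.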
